A study of Mus musculus with 12 samples.

Results

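Ribosome biogenesis and nucleolar genes were followed as a set of 57 mouse genes chosen by name for what they do, with earlier results of these data known. Counts of members beside the share of all tested spots are therefore a description and no independent evidence. The set holds 4 genes of ribosomal RNA (rRNA) transcription, 9 of the small nucleolar ribonucleoprotein particles (snoRNPs), 19 of small subunit assembly, 20 of large subunit assembly and 5 general nucleolar genes. A spot was a member when its only gene symbol was in this list, and it was tested when every group had a value on at least 2 arrays. Of the 57 genes, 47 had a spot, and 42 spots of 40 genes were tested among 16062 tested spots in all. The tested spots covered 3 genes of rRNA transcription (4 spots), 6 snoRNP genes (6 spots), 9 small subunit genes (9 spots), 19 large subunit genes (20 spots) and 3 other nucleolar genes (3 spots). Dkc1, Utp18, Wdr75, Heatr1, Noc4l, Nat10, Rrp12, Tsr1, Gnl3 and Gnl3l were matched to no spot, so their transcripts were not analysed here. The spots of Polr1b, Nop10, Nop56, Nop14, Nop16, Utp20 and Wdr43, and a second Ncl spot, had values on 1 to 10 arrays and too few in at least 1 group to be tested. Of the 42 tested spots, 35 had a value on all 12 arrays.

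The study bears the title of nuclear growth hormone receptor and profiled total RNA of 12 mouse samples on 2-colour spotted arrays. Each sample was labelled with Cy3 and hybridised beside a Cy5-labelled commercial RNA of mouse embryos. There were 4 groups of 3 arrays, NLS 0GH, WT 0GH, NLS 1GH and WT 1GH, with replicate letters b, c and d in each. NLS commonly abbreviates nuclear localization signal, WT wild type and GH growth hormone. The labels list human growth hormone at 100 ng/ml for all 12 samples and call the experiment a time course, but they give the 0 and the 1 before GH no unit. They also give no meaning for the 10 that follows the receptor name in every title, no cell type, no age, no promoter or vector of the receptor forms and no statement on whether a form is a single clone. Nothing says that the letters are separate cultures, so every p-value below measures only the spread between these samples, which may be technical. The arrays are of bulk RNA, in which fewer cells of a type and less RNA per cell cannot be told apart.

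Every value was read as a log2 ratio of sample over embryonic reference and centred so that the median of the tested spots of an array is 0. The labels do not name the numerator. Of 42 genes of embryonic tissues, 36 lay above the array median in the deposited values, so these were read as reference over sample and multiplied by -1. The opposite reading would turn every sign below. Arrays gave a value for 15939 to 19700 of 23040 spots, and precision is limited by having 3 arrays in a group. Arrays of a letter in different groups correlated at a median of 0.53 across spots, against 0.43 for arrays of a group. Spots are not independent replicates, so this is a description. Ratios of different spots are not comparable as levels, so each spot is compared only with itself across arrays.

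As background, ribosomes are built in the nucleolus, where RNA polymerase I transcribes the precursor of most rRNAs. SnoRNPs guide methylation and pseudouridylation of this precursor, and assembly factors fold, cut and load it with ribosomal proteins to give the precursors of the small and the large subunit. Ribosome biogenesis is a main cost of cell growth, and many of its genes are known targets of the transcription factor Myc.

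The comparison of NLS with WT over both GH numbers asks how the transcripts of the pathway differ between the receptor forms. No member passed the threshold of an adjusted p of 0.05 (0 of 42), but most member spots lay higher in NLS arrays. At an unadjusted p under 0.05 in limma, 14 of 42 spots were higher in NLS and 0 were lower. By the same rule 2.73% of all tested spots were higher and 2.93% lower. The 14 were Nop58, Nhp2, Nolc1, Gar1 and Rrp9 of the snoRNPs, Bysl, Nob1 and Emg1 of the small subunit, and Nip7, Rpf2, Ddx56, Nifk, Ddx18 and Brix1 of the large subunit, with adjusted p-values of 0.815 to 0.879. Over all tested spots 0.00623% passed the adjusted threshold, which is 1 spot, Ms4a6d, at -5.32 (SE 0.47, limma adjusted p 0.0463, 10 arrays). The difference was above 0 for 33 of the 42 spots, where 47.7% of all tested spots were above 0. Its median was 0.82 over the members, or 0.48 over the 35 spots with a value on all 12 arrays, and -0.04 over all tested spots.

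In 5 member spots, those of Nop58, Nhp2, Nob1, Nip7 and Brix1, the lowest NLS value was higher than the highest WT value, which 0.479% of all tested spots did. The reverse held for 0 member spots (0.299% of all tested spots). When each NLS array was set beside the WT array of its letter and GH number, 11 spots were higher in NLS in every measured pair (4.38% of all tested spots) and 0 were lower in every pair (3.73%). The difference by letter was above 0 in all 3 letters for 18 spots (14% of all tested spots) and below 0 in all 3 for 2 spots, Ddx52 and the second Ubtf spot (14.9%). By step, the median difference was 0.80 for rRNA transcription, 1.24 for the snoRNPs, 0.20 for the small subunit, 0.74 for the large subunit and 0.33 for the other nucleolar genes. All 6 snoRNP spots were above 0, as were 17 of 20 large subunit, 5 of 9 small subunit, 3 of 4 rRNA transcription and 2 of 3 other nucleolar spots. The 4 spots of rRNA transcription include 2 of Ubtf, which lay on opposite sides of 0. Differences between the steps were not tested.

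**Figure D1:**
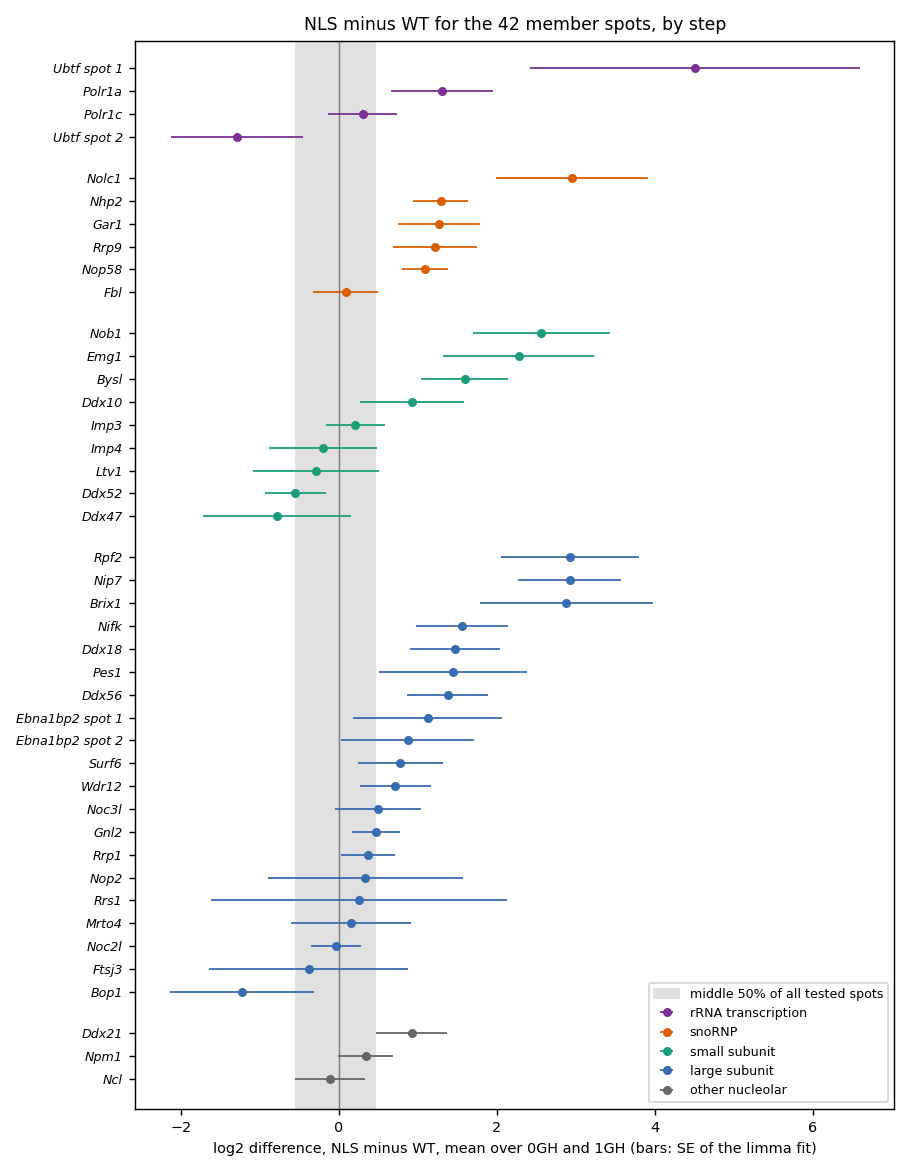
Log2 difference of NLS minus WT, averaged over both GH numbers, for the 42 member spots ordered within each step, with bars of 1 SE from the limma fit and the middle 50% of all tested spots (-0.54 to 0.45) in grey. All 6 snoRNP points lie right of 0, most large subunit points do, and the small subunit points fall on both sides.

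The stretches upstream of Nop58, Nhp2 and Nip7 are shown because these 3 genes had all 6 NLS arrays above all 6 WT arrays with no missing value. Each is the 250 bases before the start of the gene in RefSeq's annotation of GRCm38.p6, 5′ to 3′ on the plus strand, with the letters CCGGAA or their reverse complement TTCCGG in capitals. Nop58 lies at chr1:59684756-59685005, Nhp2 at chr11:51619523-51619772 and Nip7 at chr8:107056627-107056876.
Nop58: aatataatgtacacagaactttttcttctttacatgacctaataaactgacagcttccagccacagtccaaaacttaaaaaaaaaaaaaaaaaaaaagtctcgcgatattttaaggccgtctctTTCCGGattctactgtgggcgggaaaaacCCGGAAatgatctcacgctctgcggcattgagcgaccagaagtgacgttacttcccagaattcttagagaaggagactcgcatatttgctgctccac
Nhp2: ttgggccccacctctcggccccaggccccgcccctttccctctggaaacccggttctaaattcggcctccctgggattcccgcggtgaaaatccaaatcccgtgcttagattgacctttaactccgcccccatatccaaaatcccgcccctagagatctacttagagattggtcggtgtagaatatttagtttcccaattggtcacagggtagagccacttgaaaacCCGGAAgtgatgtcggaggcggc
Nip7: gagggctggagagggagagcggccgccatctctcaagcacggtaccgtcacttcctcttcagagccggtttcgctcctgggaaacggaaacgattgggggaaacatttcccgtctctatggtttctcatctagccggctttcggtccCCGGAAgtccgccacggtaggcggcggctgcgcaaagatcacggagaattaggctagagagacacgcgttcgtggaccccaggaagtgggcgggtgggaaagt
The capitals mark 2 matches for Nop58 and 1 each for Nhp2 and Nip7. CCGGAA is the core of sites known to bind transcription factors of the ETS family, and it was chosen as a motif after these sequences were seen.

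A window of this kind was given for 50 of the 57 genes, in 59 windows. CCGGAA or TTCCGG stood in 21 of the 59 (35.6%), against 18.1% of the windows of all genes on the array and 12.03% of all 32851 windows. These 21 include the windows that prompted the choice of the motif, so the share is no independent evidence. Nob1, whose NLS arrays also lay above all WT arrays, had no match. The E-box CACGTG, known to bind Myc with Max and the same on both strands, stood in 4 of the 59 member windows (6.78%), those of Imp4, Nop2, Rpf2 and Utp18, against 7.72% for all genes on the array and 6.02% of all windows. The palindromic core motif of NRF1, a regulator of respiratory genes, stood in 0 member windows, against 1.31% for all genes on the array and 0.782% of all windows. None of the 3 printed windows holds CACGTG. A match is a description of these letters and not evidence of a bound site, and no match says only that the letters are not in this window.

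Among the snoRNP genes, Nop58 encodes a core protein of the box C/D particles that methylate rRNA. Its spot read 0.53, 0.96 and 0.60 in NLS 0GH (letters b, c and d), -0.34, -0.74 and 0.14 in WT 0GH, 0.84, 1.10 and 0.75 in NLS 1GH, and -0.19, -0.34 and -0.27 in WT 1GH. The receptor forms did not overlap, with a lowest NLS value of 0.53 and a highest WT value of 0.14. NLS arrays averaged 0.80 ± 0.22 and WT arrays -0.29 ± 0.29 (SD, n = 6 each), a difference of 1.09 (SE 0.29, 2.12-fold, limma unadjusted p 0.00356, adjusted p 0.815). Nhp2, a core protein of the box H/ACA particles that pseudouridylate rRNA, read 1.08, 2.04 and 1.52 in NLS 0GH, -0.28, 0.20 and 0.55 in WT 0GH, 1.33, 1.90 and 1.35 in NLS 1GH, and -0.17, 1.01 and 0.17 in WT 1GH. Again no WT array reached the lowest NLS array, although WT 1GH c came near it. The difference for Nhp2 was 1.29 (SE 0.35, 2.44-fold, limma unadjusted p 0.00399, adjusted p 0.815).

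Gar1, the partner of Nhp2 in box H/ACA particles, ranged from 0.96 to 3.37 with a median of 1.77 in NLS arrays, and from -0.42 to 1.09 with a median of 0.93 in WT arrays. Its receptor forms overlapped at the low end of NLS, and NLS was higher in 5 of 6 pairs. The difference was 1.27 (SE 0.52, limma unadjusted p 0.0358). Nolc1, a chaperone of snoRNPs that shuttles between nucleolus and Cajal bodies, ranged from -3.0 to 2.52 with a median of -0.51 in 6 NLS arrays, and from -3.92 to -1.39 with a median of -3.24 in 5 WT arrays. The 2 forms overlapped through NLS 0GH d, yet NLS was higher in all 5 measured pairs. Its difference was 2.95 (SE 0.96, 11 arrays, limma unadjusted p 0.0132). Rrp9, the protein that marks the U3 snoRNP, ranged from 0.16 to 3.59 with a median of 0.85 in NLS arrays, and from -0.36 to 0.46 with a median of 0.09 in WT arrays. Its highest value stood in NLS 0GH b, and without that array the difference was 0.76, against 1.22 with it (SE 0.54). Fbl (fibrillarin), the methyltransferase of box C/D particles, was the snoRNP spot nearest to 0. It ranged from -1.50 to 0.40 in NLS arrays and from -1.06 to 0.11 in WT arrays, with NLS higher in 3 of 6 pairs and a difference of 0.08 (SE 0.41).

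Within small subunit assembly, 3 of 9 spots were higher in NLS at an unadjusted p under 0.05 (2.73% of all tested spots). Of the other 6 spots, 4 lay below 0. Nob1, the endonuclease that makes the last cut of 18S rRNA, read 1.53 and 1.31 in NLS 0GH (letters c and d), -3.59, -0.25 and -0.23 in WT 0GH, 0.97, 0.36 and 1.81 in NLS 1GH, and -2.75 and 0.16 in WT 1GH (letters c and d). All 5 NLS arrays with a value lay above the 5 WT arrays, 2 of which were far lower than the rest. The difference was 2.56 (SE 0.87, 5.90-fold, limma unadjusted p 0.0181, adjusted p 0.855). Bysl, the bystin needed for late maturation of the small subunit, read 0.10, -0.65 and -2.80 in NLS 0GH, -1.17, -2.96 and -1.62 in WT 0GH, 0.05, 0.58 and -0.67 in NLS 1GH, and -2.09, -2.58 and -2.53 in WT 1GH. Its forms were apart at 1GH and overlapped at 0GH through NLS 0GH d. The difference was 1.59 (SE 0.55, 3.01-fold, limma unadjusted p 0.0155, adjusted p 0.848).

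Emg1, a pseudouridine methyltransferase of 18S rRNA, ranged from 0.37 to 4.40 with a median of 1.55 in 6 NLS arrays, and from -2.36 to 1.65 with a median of -0.36 in 5 WT arrays. The forms overlapped, with the lowest WT values in letter d, and NLS was higher in all 5 measured pairs. Its difference was 2.28 (SE 0.96, limma unadjusted p 0.0411), and 1.70 without NLS 0GH b. Ddx52, a helicase of early small subunit precursors, lay on the other side of 0, with values from -0.34 to 1.30 in NLS arrays and from 0.34 to 1.48 in WT arrays. NLS was lower in 5 of 6 pairs, with a difference of -0.55 (SE 0.39, limma unadjusted p 0.182). Imp3, a U3 snoRNP protein and the small subunit spot nearest to 0, differed by 0.20 (SE 0.37). The spots not described further, Ddx10, Ddx47, Ltv1 and Imp4, differed by -0.78 to 0.92, each by less than 1.5 SE.

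Within large subunit assembly, 6 of 20 spots were higher in NLS at an unadjusted p under 0.05 (2.73% of all tested spots). Nip7, a factor for 27S rRNA processing in yeast, had the smallest p of all members. It read 1.27, 1.52 and 1.76 in NLS 0GH, -1.01, -2.33 and -0.05 in WT 0GH, 1.94, 1.32 and 1.57 in NLS 1GH, and -1.95, 0.58 and -3.40 in WT 1GH. NLS arrays lay close together above all WT arrays, while WT arrays were spread widely. NLS averaged 1.56 ± 0.25 and WT -1.36 ± 1.48 (SD, n = 6 each), a difference of 2.92 (SE 0.65, 7.57-fold, limma unadjusted p 0.00114, adjusted p 0.815). Brix1, a Brix-domain factor of 60S assembly, read 5.93, 2.58 and 2.60 in NLS 0GH, -2.14 and 2.20 in WT 0GH (letters c and d), 2.81 and 3.15 in NLS 1GH (c and d), and 0.76 and 1.04 in WT 1GH (c and d). Its 5 NLS arrays lay above its 4 WT arrays, but NLS 0GH d and WT 0GH d were close. The difference was 2.88 (SE 1.10, 9 arrays, limma unadjusted p 0.0338), and 2.32 without NLS 0GH b.

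Rpf2, also a Brix-domain protein, which brings the 5S particle to the large subunit precursor, read 5.72, 1.44 and 1.39 in NLS 0GH, -0.85, -0.96 and 1.69 in WT 0GH, 3.98, 1.77 and 2.50 in NLS 1GH, and -1.36, 0.53 and 0.21 in WT 1GH. The highest values stood in letter b of both NLS groups, and only WT 0GH d reached into the NLS range. Its difference was 2.92 (SE 0.88, 7.59-fold, limma unadjusted p 0.00732, adjusted p 0.815), and 2.21 without NLS 0GH b. Nifk, a nucleolar protein that binds the forkhead domain of Ki-67, ranged from 0.22 to 2.32 with a median of 2.11 in NLS arrays, and from -1.20 to 1.56 with a median of 0.30 in WT arrays. The ranges overlapped, and letter b was the lowest array of each group. NLS was higher in all 6 pairs, and the difference was 1.55 (SE 0.58, limma unadjusted p 0.0231). Ddx56, a nucleolar helicase, ranged from 0.47 to 3.41 with a median of 0.98 in NLS arrays, and from -0.52 to 0.97 with a median of -0.29 in WT arrays. NLS was higher in all 6 pairs although WT 0GH d reached the NLS range, and the difference was 1.38 (SE 0.51, limma unadjusted p 0.0219). Ddx18, a further nucleolar helicase, ranged from 0.14 to 3.60 with a median of 1.37 in NLS arrays, and from -1.77 to 0.77 with a median of 0.30 in WT arrays. Its highest and lowest values were both in letter b at 0GH, and NLS was higher in 5 of 6 pairs. The difference was 1.47 (SE 0.57, limma unadjusted p 0.0266), and 1.11 without NLS 0GH b.

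**Figure D2:**
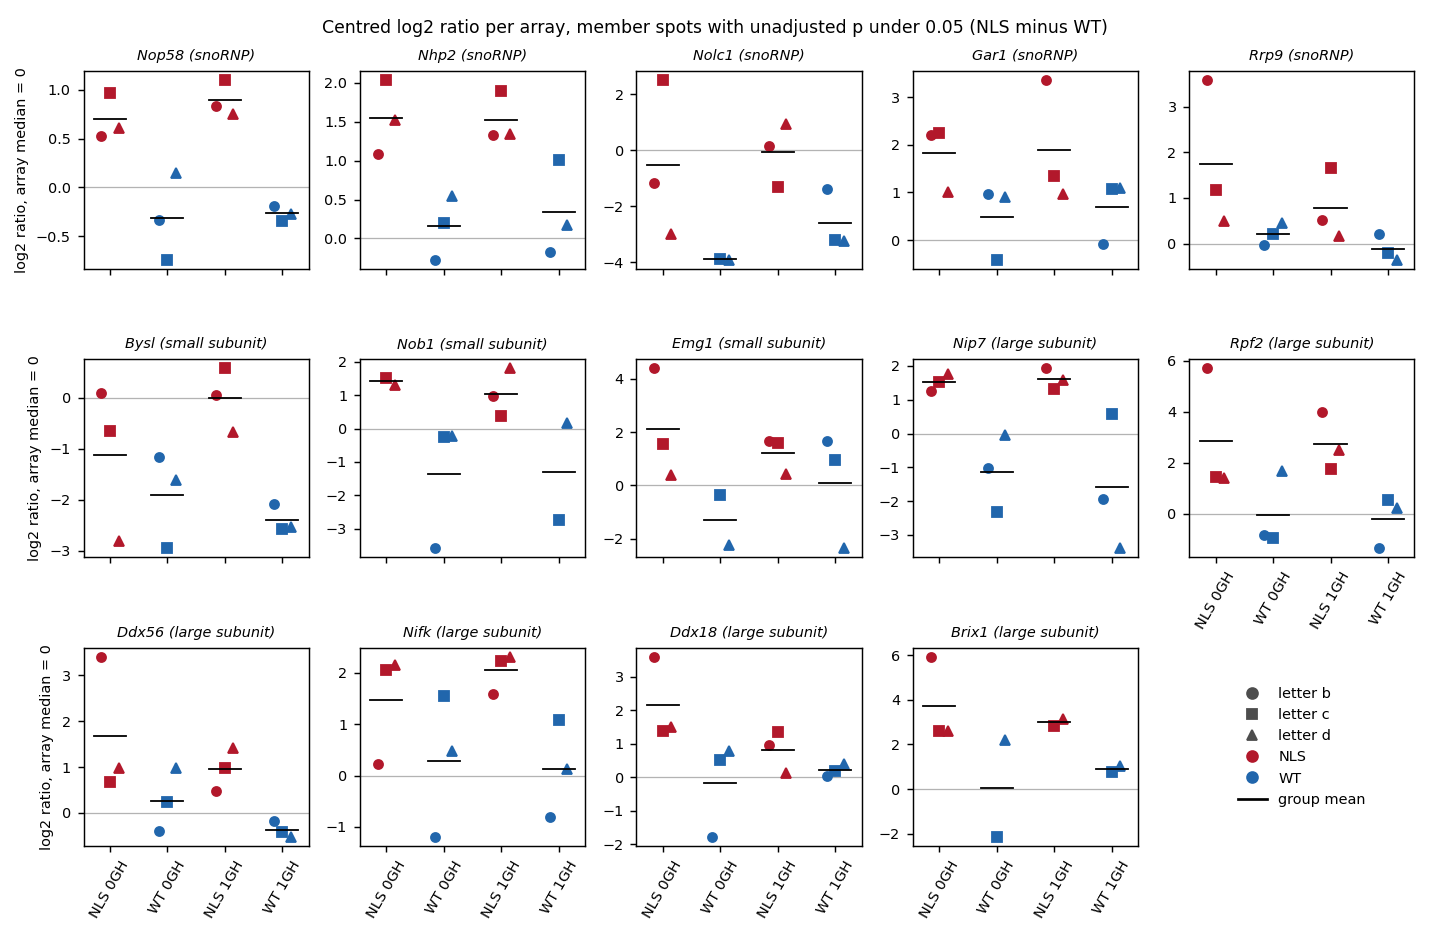
Centred log2 ratio on each array (y axes, log2 units, array median at 0) for the 14 member spots with an unadjusted p under 0.05, in NLS 0GH, WT 0GH, NLS 1GH and WT 1GH, with a marker shape for each letter and a line at the group mean. NLS points lie above all WT points for Nop58, Nhp2, Nob1, Nip7 and Brix1, and NLS 0GH b is the highest point for Rrp9, Emg1, Rpf2, Ddx56, Ddx18 and Brix1.

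The 3 proteins of the PeBoW complex, which processes the 32S rRNA precursor, did not all lie on the same side of 0. Pes1 differed by 1.44 (SE 0.94), Wdr12 by 0.71 (SE 0.45) and Bop1 by -1.23 (SE 0.91), and none passed an unadjusted p of 0.05. Wdr12 ranged from 1.21 to 3.23 in NLS arrays and from -0.43 to 2.13 in WT arrays, and NLS was higher in all 6 pairs. Bop1 ranged from -4.34 to 0.52 in NLS arrays and from -1.31 to 2.33 in WT arrays, with NLS lower in 5 of 6 pairs. Noc2l, which with other Noc proteins moves large subunit precursors out of the nucleolus, was the large subunit spot nearest to 0, at -0.04 (SE 0.32). Rrs1, an assembly factor that joins the precursor with Rpf2, had the widest spread of the members. It read 8.88, -0.32 and 2.07 in NLS 0GH, 0.43, 2.68 and 1.34 in WT 0GH, 3.68, 2.35 and 3.09 in NLS 1GH, and 10.60, 2.70 and 0.52 in WT 1GH. The 2 values far above the rest stood in letter b, in NLS 0GH and in WT 1GH, and the difference of 0.25 had an SE of 1.88. Ebna1bp2 was measured by 2 spots, at 1.12 (SE 0.95, 10 arrays) and 0.87 (SE 0.84).

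Among the 4 spots of rRNA transcription 0 reached an unadjusted p of 0.05. Of all tested spots only 2.73% were higher and 2.93% lower by this rule, so 4 spots are too few to read this count. Polr1a, the largest subunit of RNA polymerase I, read 3.63, 0.76 and 1.0 in NLS 0GH, 0.08, -1.57 and 0.95 in WT 0GH, 0.45, 0.82 and 0.02 in NLS 1GH, and -0.91, -0.62 and 0.95 in WT 1GH. NLS was higher in 5 of 6 pairs, and WT 0GH b and both WT arrays of letter d lay within the NLS range. The difference was 1.30 (SE 0.64, limma unadjusted p 0.0700), and 0.84 without NLS 0GH b. Polr1c, a subunit shared by RNA polymerases I and III, differed by 0.30 (SE 0.44). Ubtf, the upstream binding factor of the rRNA genes, was measured by 2 spots on opposite sides of 0. The first, with values on 8 arrays, ranged from -2.31 to 1.89 in NLS arrays and from -8.73 to -0.20 in WT arrays, a difference of 4.51 (SE 2.09). The second, on all 12 arrays, ranged from -0.30 to 3.04 in NLS arrays and from 0.21 to 5.14 in WT arrays, a difference of -1.29 (SE 0.84). Neither difference passed, so no direction is given for Ubtf.

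The other nucleolar genes lay mostly within their spread. Ddx21, a helicase that binds rRNA genes and snoRNAs, read 3.14, 1.16 and 1.09 in NLS 0GH, 1.33, 0.46 and 1.61 in WT 0GH, 2.58, 1.76 and 1.67 in NLS 1GH, and 0.64, 1.26 and 0.59 in WT 1GH. At 1GH all NLS arrays lay above the WT arrays, and at 0GH WT b and d lay within the NLS range. The difference was 0.92 (SE 0.45, limma unadjusted p 0.0678). Npm1 (nucleophosmin), an abundant nucleolar chaperone, differed by 0.33 (SE 0.34), and Ncl (nucleolin), which binds nascent rRNA, by -0.12 (SE 0.45).

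Replicate letters and single arrays contributed unequally. Over the member spots the median difference of letter b was 0.72, with 29 of 38 spots above 0. That of letter c was 0.96, with 34 of 42 above 0, and that of letter d was 0.31, with 28 of 42 above 0. In the same order of letters it was 1.48, 1.44 and 0.51 for the snoRNPs, 0.72, 0.88 and 0.46 for the large subunit, and 0.01, 1.24 and 0.34 for the small subunit. Letter d thus had the lowest median for every step except the small subunit, where b had it. NLS 0GH b was the highest of all arrays in 12 of the 42 spots (28.6%), against 12.5% of all tested spots. Without that array, 9 of the 14 spots kept an unadjusted p under 0.05, and Gar1, Rrp9, Emg1, Ddx18 and Brix1 did not. The number of higher spots was 9 without letter b, 5 without letter c and 8 without centring of the arrays. Over all tested spots it was 581, 302 and 255 in the same order, against 438 in the main fit and 441 without NLS 0GH b. The 1 called spot outside the set, Ms4a6d, did not pass with the letter as a fixed block, where 0 spots passed.

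**Figure D3:**
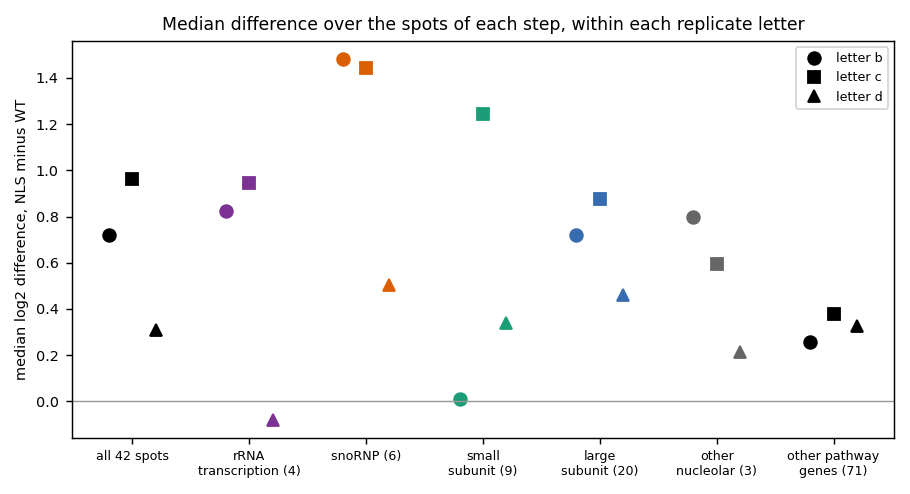
Median over spots of the log2 difference NLS minus WT (y axis) within letters b, c and d, for all 42 member spots, for each step and for the other genes of the pathway, with the number of spots in parentheses. Letter d is lowest for the whole set at 0.31, and the snoRNP medians of b and c, 1.48 and 1.44, are the highest of all medians shown.

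At each GH number taken alone, the receptor difference rests on 3 arrays against 3, and the WT arrays differ between the numbers. At 0GH no member passed (0 of 42), 8 spots were higher at an unadjusted p under 0.05 (2.1% of all tested spots), 0 were lower (3.24%) and 34 were above 0 (49.3%), with a median of 0.92. The 8 became 3 without NLS 0GH b, 2 to 5 without a letter and 1 without centring, where the median of all tested spots was -0.26. Over all tested spots 338 were higher at 0GH. They became 308 without NLS 0GH b, 305 to 318 without a letter and 70 without centring. At 1GH no member passed either, 7 spots were higher at an unadjusted p under 0.05 (2.02%), 0 were lower (1.52%) and 29 were above 0 (47.3%), with a median of 0.80. The 7 became 2 to 3 and the median 0.41 to 0.89 without a letter. Over all tested spots 325 were higher at 1GH, and 233 to 635 without a letter. No spot of the whole array passed the adjusted threshold in limma at either number. The difference was above 0 at both numbers for 25 of 42 spots (24.9% of all tested spots), below 0 at both for 4 (Bop1, Ddx52, Ncl and the second Ubtf spot) and of unlike sign for 13. Nip7 differed by 2.64 at 0GH (SE 0.92) and 3.20 at 1GH (SE 0.92), Rpf2 by 2.89 and 2.96 (SE 1.24 each), Nhp2 by 1.39 and 1.19 (SE 0.49 each) and Nop58 by 1.01 and 1.16 (SE 0.41 each). These 4 spots had an unadjusted p under 0.05 at both numbers. Ddx18 differed by 2.33 at 0GH and 0.61 at 1GH (SE 0.80 each), Emg1 by 3.40 (SE 1.43) and 1.15 (SE 1.28), and Bysl by 0.80 and 2.39 (SE 0.77 each).

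The test that the receptor difference depends on the GH number is the interaction, the difference at 1GH minus that at 0GH. No member passed it (0 of 42), 1 spot was higher at an unadjusted p under 0.05 (2% of all tested spots) and 0 were lower (0.996%), while 15 were above 0 (48.7%). The spot was the second of Ebna1bp2, at 4.03 (SE 1.68, limma unadjusted p 0.0370, adjusted p 0.998). For Ddx18 the interaction was -1.71 (SE 1.13), for Emg1 -2.25 (SE 1.92) and for Bysl 1.59 (SE 1.10), so none of the 3 was shown to differ between the numbers. The median was -0.26 over the members and -0.04 over all tested spots. Without centring both shifted, to 0.48 over the members and 0.65 over all tested spots, and without letter c the member median was 0.11.

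**Figure D4:**
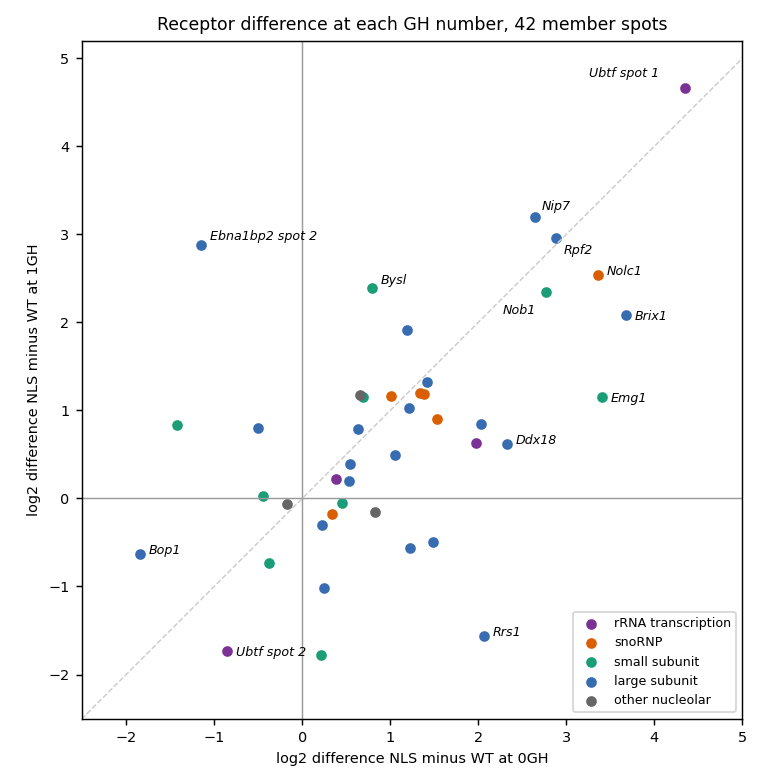
Log2 difference NLS minus WT at 1GH (y axis) against that at 0GH (x axis) for the 42 member spots, coloured by step, with a dashed line where both are equal. Of the spots 25 lie in the upper right area, above 0 on both axes, 27 lie below the dashed line and 15 above it, and Ebna1bp2 spot 2 and Rrs1 lie far from it.

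The comparison of 1GH with 0GH asks what differs between the GH numbers within a receptor form. In NLS arrays no member passed, 1 spot was higher at an unadjusted p under 0.05 (2.37% of all tested spots), 0 were lower (1.15%), 16 were above 0 (48%) and the median was -0.19, against -0.04 over all tested spots (0.23 against 0.35 without centring). The higher spot was again the second of Ebna1bp2, at 2.78 (SE 1.19, limma unadjusted p 0.0410). In WT arrays no member passed, 0 were higher (1.23%), 0 lower (1.69%), 24 above 0 (51.6%) and the median was 0.04, against 0.03 over all tested spots (-0.28 against -0.26 without centring). No spot of the whole array passed the adjusted threshold in limma in either form. These comparisons share arrays with the receptor comparisons above.

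Other genes of the pathway were measured by 71 spots of 68 genes. Their median receptor difference was 0.27, and 47 were above 0 (47.7% of all tested spots). At an unadjusted p under 0.05 in limma 6 were higher (2.73%) and 0 were lower (2.93%), and none passed. Mybbp1a, a nucleolar protein that binds Myb and takes part in rRNA processing, ranged from 1.09 to 2.42 with a median of 1.76 in NLS arrays, and from 0.08 to 0.62 with a median of 0.31 in WT arrays. Its receptor forms did not overlap. The difference was 1.45 (SE 0.33, limma unadjusted p 0.00141, adjusted p 0.815). Ddx54, a nucleolar helicase, differed by 1.08 (SE 0.36), and Rrp8, a nucleolar methyltransferase, by 1.44 (SE 0.50), with NLS higher in all 6 pairs for Rrp8. Rcl1, an early small subunit factor, Rrp1b, a nucleolar relative of Rrp1, and Dimt1, the dimethylase of 18S rRNA, differed by 3.47 (SE 1.11), 3.95 (SE 1.32) and 3.66 (SE 1.33), with wide and overlapping ranges. Spots of cytosolic ribosomal proteins, the products that these factors assemble, had a median of 0.07, with 41 of 73 above 0 (47.7% of all tested spots). At 0GH their median was 0.38 with 65 above 0 (49.3%), and at 1GH it was -0.26 with 18 above 0 (47.3%). The median of their interaction was -0.70, against -0.04 over all tested spots, with 8 above 0 (48.7%) and 65 below. At an unadjusted p under 0.05 in limma 0 were higher (2% of all tested spots) and 0 were lower (0.996%). A dependence on the GH number was therefore not shown for single spots.

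Growth and proliferation genes and markers of blood cells were measured on the same arrays. Odc1, the ornithine decarboxylase of polyamine synthesis and a known Myc target, ranged from -0.53 to 0.83 in NLS arrays and from -1.55 to -0.65 in WT arrays, which did not overlap, with a difference of 1.29 (SE 0.37). Myc itself differed by 1.21 (SE 0.82, 11 arrays), with overlapping ranges, by 2.53 at 0GH and by -0.12 at 1GH. Of the 8 spots of Myc, Mycn, Max, Mxi1, Mnt, Odc1, Cad and Ldha, 7 were above 0, with a median of 1.01, and Max was at -0.38. Of all tested spots 47.7% were above 0. At 0GH the median of these 8 spots was 1.51 with 7 above 0 (49.3% of all tested spots), and at 1GH it was 0.15 with 5 above 0 (47.3%). Their interaction had a median of -0.90, with 1 spot lower at an unadjusted p under 0.05 in limma (0.996%). None passed the adjusted threshold, so a dependence on the GH number was not shown. Of 13 proliferation spots, 8 were above 0, with a median of 0.18. Of 9 spots of erythroid and megakaryocyte markers, 8 were below 0, with a median of -0.91, and the alpha globin spot Hba-a1 had a difference of -1.36 (SE 0.45, limma unadjusted p 0.0130, adjusted p 0.848). The mean of these 9 spots was -0.69 to 1.09 in NLS arrays and 0.09 to 2.30 in WT arrays. The mean of 12 B lymphoid spots was -0.19 to 1.52 in NLS arrays and 0.10 to 1.28 in WT arrays, and that of 10 myeloid and mast cell spots -1.41 to -0.46 and -2.12 to -0.57. For 9 T lymphoid spots it was -1.83 to -0.14 in NLS arrays and -1.26 to -0.13 in WT arrays, and for 13 fibroblast spots -2.64 to -1.65 and -2.55 to -1.64. Of these spots 5 of 12 B lymphoid, 7 of 10 myeloid and mast cell, 2 of 9 T lymphoid and 7 of 13 fibroblast spots had a receptor difference above 0. Of 33 embryo-tissue spots 13 did, with a median of -0.25. No marker can be placed at 0 expression from a ratio, and the part of these markers in the result was not tested.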

How the data were processed

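The 12 mouse RNA samples form 4 groups of 3 spotted 2-colour arrays. The deposited values were read as log2 ratios of the 2 channels, the base being inferred from their range of -14.58 to 18.18. If the scan was 16-bit, its highest reading over a floor of 200 would be 8.36 in log2. That floor was set for control intensities, so it limits only the end with the control as denominator. Both ends of the range exceed 8.36 in size. The base and scale are therefore uncertain, and so are the fold values above. Per the series' design text, the authors adjusted the control value by a Lowess fit over 50% of the data and raised control intensities under 200 to that floor. For scanner and background correction no source used here gives a method. Spots were named from GEO's platform annotation of 2007 (16955 with a single symbol, 142 with several and 5943 unannotated). Of 23040 spots, 903 controls were left out.

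The sign was turned, since 76.5% to 89.7% of the embryo-tissue genes lay above the median of each array as deposited. The 16062 spots with at least 2 values in every group were centred on the median of their array and fitted with limma 3.58.1 (lmFit, eBayes, group means, no block) in R 4.3.3 on all 12 arrays. Tests were two-sided, with Benjamini-Hochberg adjustment over all tested spots and a threshold of 0.05. The receptor difference is the mean of those at 0GH and 1GH, so with missing values it can differ from the difference of the form means. Fits were tested on simulated data.

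Per the labels, the reference of all letter b samples carried a dye molecule per 19.3 bp, that of c per 19.8 bp and that of d per 17.9 bp. Samples of a letter may thus share a labelled reference, which would pair them, but the labels do not say so. The p-values printed above come from the fit without a block, which leaves such a pairing out. Deviations from group means correlated at 0.043 to 0.266 within letters and at -0.189 to 0.064 between them. The blocked fits were alternatives.

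The members and lists were chosen with earlier results of these data known. Named members are, per step, the 4 spots with the smallest p, those whose receptor forms do not overlap and the spot nearest to 0. Of the other pathway genes the 6 with the smallest p are named. Ddx18, Rrp9, Rrs1, Ebna1bp2, Odc1, Myc, Hba-a1, Ms4a6d and the PeBoW genes were added after their values were seen. Motifs were counted in RefSeq windows of GRCm38.p6 on both strands. Other settings tried were no centring, scaling, quantile normalization, complete spots, averaged spots, trimmed ratios, dye incorporation as a covariate, a robust prior and leaving out each letter or NLS 0GH b.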

Additional observations from a re-analysis of the deposited data

Results flagged for a closer look

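The second Ebna1bp2 spot had an interaction of receptor and GH number of 4.03 (SE 1.68). In the pairs by letter, NLS was lower than WT in all 3 at 0GH and higher in all 3 at 1GH. It read 0.08, -0.05 and -1.13 in NLS 0GH, 0.16, 2.29 and -0.11 in WT 0GH, 5.21, 0.00 and 2.02 in NLS 1GH, and 0.04, -1.45 and -0.01 in WT 1GH. The interaction did not pass in limma (adjusted p 0.998), and for the first spot of the gene it was -0.18 (SE 1.89). Npm1 had an interaction of -0.98 (SE 0.69, limma adjusted p 0.998), with NLS higher in all 3 pairs at 0GH and lower in all 3 at 1GH. It read 2.50, 2.01 and 2.03 in NLS 0GH, 0.82, 1.85 and 1.38 in WT 0GH, 0.91, 1.81 and 1.53 in NLS 1GH, and 0.99, 1.98 and 1.75 in WT 1GH.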

How the results depend on the processing

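The median receptor difference of the members was 0.82 and kept its sign under every alternative run. It was 0.48 over the 35 spots complete on 12 arrays, 0.82 with the replicate block and 0.76 without NLS 0GH b, an alternative chosen after the data were seen. The 14 spots higher at an unadjusted p under 0.05 became 8 without centring, 9 with the outer 5% of ratios left out, 9 without NLS 0GH b, and 5 to 9 without letter b or c. With the replicate block as a fixed effect there were again 14. Over all 16062 tested spots the higher spots numbered 438 in the main fit and 633 with the fixed block. They numbered 255 without centring, 441 without NLS 0GH b, 581 without letter b and 302 without letter c. With the outer 5% left out they were 405 of 12822 tested spots. The 1 spot of the array that passed became 0 with the fixed block, without centring, with quantile normalization, with complete spots, averaged spots, trimmed ratios, the dye covariate or a robust prior, and without each letter (0 to 0). At 0GH the median of 0.92 became 0.64 with complete spots and 0.58 to 1.35 without a letter, and the 8 higher spots became 1 without centring, 5 with complete spots, 3 without NLS 0GH b and 2 to 5 without a letter. With complete spots 245 of 11244 tested spots were higher at 0GH. At 1GH the median of 0.80 became 1.22 without centring and 0.41 to 0.89 without a letter, and the 7 higher spots became 2 to 3 without a letter. The interaction median of -0.26 became 0.48 without centring and -0.54 to 0.11 without a letter. For 1GH minus 0GH the median in NLS of -0.19 became 0.23 without centring, -0.15 with the replicate block, -0.065 with scaling, -0.10 with quantile normalization, -0.24 with averaged spots, -0.23 with trimmed ratios and -0.28 to -0.14 without a letter, and in WT 0.04 became -0.28 without centring. Without centring the medians of all tested spots were 0.65 for the interaction, 0.35 in NLS and -0.26 in WT, each of the sign of the member median. Without letter c the interaction median was 0.11 over the members and -0.09 over all tested spots. The cause of these sign changes was not tested. Of the values of single spots recomputed under the alternatives, 7 changed sign and 715 did not. No member passed the adjusted threshold to begin with, so these counts speak of direction only. The named spots were picked mainly by their p in these same arrays, so a kept sign is no independent evidence. The change for Ubtf set its second spot against 0.46, the value of both Ubtf spots averaged, which is a different quantity. Noc2l was at 0.052 without centring, 0.093 with the dye covariate, 0.13 without letter c and 0.057 without NLS 0GH b. Ncl was at 0.058 with quantile normalization and -0.47 to 0.15 without a letter. The cause of these changes was not tested. With 3 arrays a group, differences of the size seen here had SEs of 0.29 to 2.09, and a ratio alone does not show signal over background.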
